A study of Mus musculus with 2 samples.

Results

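Deoxynucleotide synthesis and breakdown were followed through 9 enzyme genes, Rrm1, Rrm2, Rrm2b, Tyms, Tk1, Dut, Dctd, Dck and Samhd1, which were picked by symbol. All 9 were among the 24421 gene symbols measured in granulocyte-monocyte progenitors (GMPs), the bone marrow (BM) cells that give rise to granulocytes and monocytes. The cells were purified by flow cytometry from the BM of female mice of an F1 semi-syngeneic (H-2b/d) background, young adults per the study's methods. The control group consisted of non-tumor-bearing mice (NTB-GMP), and the second group (4T1-GMP) of mice bearing 4T1, a line of mammary tumor cells implanted orthotopically. Total RNA was sequenced from 1 library per group, and the sources used here give neither the time after implantation nor the number of mice behind a library. Without replicates no test of the tumor is possible, so every interval below covers counting error between these libraries only. The values are RPKM, read counts scaled by gene length and library size. Ratios are 4T1-GMP over NTB-GMP on the log2(RPKM + 0.1) scale, which understates differences of low genes. Their intervals come from the read counts without that addition of 0.1.

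DNA replication needs a balanced supply of the 4 deoxynucleoside triphosphates (dNTPs). Ribonucleotide reductase makes the deoxynucleotides from ribonucleotides, and it combines a large subunit (Rrm1) with a small subunit, either Rrm2 in dividing cells or Rrm2b, a target of p53. Thymidylate synthase (Tyms) methylates dUMP to dTMP, the dUMP coming from dUTP through Dut or from dCMP through Dctd. Thymidine kinase 1 (Tk1) and deoxycytidine kinase (Dck) salvage deoxynucleosides, and Samhd1 breaks dNTPs down. Pyrimidine synthesis upstream of these steps is the target of the DHODH inhibitor brequinar, and the comparison of GMPs from tumor-bearing and control mice addresses how nucleotide genes stand in tumor-exposed progenitors.

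Of the 9 genes, 2 were at least 1.5-fold higher in 4T1-GMP, Rrm2 and Dck, and 0 were at least 1.5-fold lower. Of the 10378 genes whose RPKM averaged 1 or more, called tested genes below although no significance test was run, 9.8% were past 1.5-fold in the higher direction, 11.6% in the lower and 21.4% in either, and all 9 enzymes passed that expression minimum. The largest difference belonged to Rrm2, the small subunit of the reductase in dividing cells, which stood at 56.6 RPKM in control GMPs against 144.9 RPKM in 4T1-GMP. Its ratio lay above 98.1% of all tested genes. The remaining 7 genes had ratios between 0.79-fold (Samhd1) and 1.37-fold (Rrm2b).

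Recovered library sizes and cell type markers also differed between the libraries. The library sizes behind the RPKM were recovered as 10180365 for NTB-GMP and 30016263 for 4T1-GMP. They are not plain read totals and are known only up to whole factors, so they do not fix the depths. Rn45s, the ribosomal RNA precursor, took 17.0% of the NTB-GMP size and 6.98% of the 4T1-GMP size. Taking it out of the library sizes shifts each log2 ratio by -0.16. The median over all tested genes was 0.05 as deposited and -0.115 after that step. Because the sizes are not plain read totals, subtracting reads from them is approximate. Of the genes past 1.5-fold, 45.7% were higher as deposited and 25.1% without Rn45s. Of 10 GMP genes, 5 were past 1.5-fold higher (beside 9.8% of all tested genes) and 3 past 1.5-fold lower (beside 11.6%). Prtn3 was among the higher (1399 and 3311 RPKM) and Fcgr3 among the lower (53.1 and 28.6 RPKM). The 2 highest in mean RPKM were Mpo, at 5163 and 5625 RPKM, and Elane, at 1853 and 2935 RPKM. The other genes past 1.5-fold lower were Kit, at 78.5 and 49.1 RPKM, and Cd34, at 153.8 and 59.4 RPKM. All 10 mature neutrophil markers were past 1.5-fold higher (summed RPKM 116.8 and 502.9). They were led in mean RPKM by Ngp (49.4 and 146.7 RPKM) and Lcn2 (15.1 and 97.0 RPKM). All 9 tested monocyte and dendritic markers were past 1.5-fold lower, of which Cd74 and Irf8 had the highest mean RPKM. Summed over all 11 listed, RPKM was 176.3 and 35.8. All 5 tested erythroid and megakaryocyte markers were also past 1.5-fold lower, with Itga2b and Car2 highest. Summed over all 9 listed, RPKM was 34.5 and 9.22. Meis1 and Hlf, the 2 tested stem and early progenitor markers, were past 1.5-fold lower too. The expression minimum is on the mean of both libraries, so a marker can pass it through 1 library alone. Gata1 (4.24 and 0.806 RPKM) and Ly6g (0.426 and 4.30 RPKM) did so. Which markers were counted thus depended partly on the library where they were high. The marker counts are as deposited and were not recomputed without Rn45s. The shift of -0.16 would put Elane (log2 ratio 0.66) below the 1.5-fold limit of 0.585. The lowest mature neutrophil marker, at a log2 ratio of 1.33, would stay past it. Of the epithelial markers, Krt18 stood at 12.8 and 8.90 RPKM and Cdh1 at 5.36 and 1.04 RPKM. None of the 5 lymphoid markers reached the expression minimum, Il7r among them. Epcam and Hba-a1 were listed at 0 in both libraries, and Ly6a and Cd3e in NTB-GMP. The part of these cell mixtures in the enzyme values was not tested, and in bulk RNA fewer cells of a type and less RNA per cell cannot be told apart.

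Ordered by level per length, the genes in NTB-GMP ran from Rrm1 (77.2 RPKM) through Rrm2 (56.6), Dut (46.9), Tk1 (36.7), Tyms (25.2), Samhd1 (18.2), Dctd (12.2) and Dck (10.4) to Rrm2b (2.20 RPKM). Of the neighbours in this order, only Dctd and Dck had overlapping 95% Poisson intervals. In 4T1-GMP, Rrm2 (144.9 RPKM) stood above Rrm1 (91.6), and Dck (16.5) had moved above Samhd1 (14.4) and Dctd (10.97 RPKM). Dut, Tk1, Tyms and Rrm2b kept places 3, 4, 5 and 9 in both libraries.

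**Figure D1:**
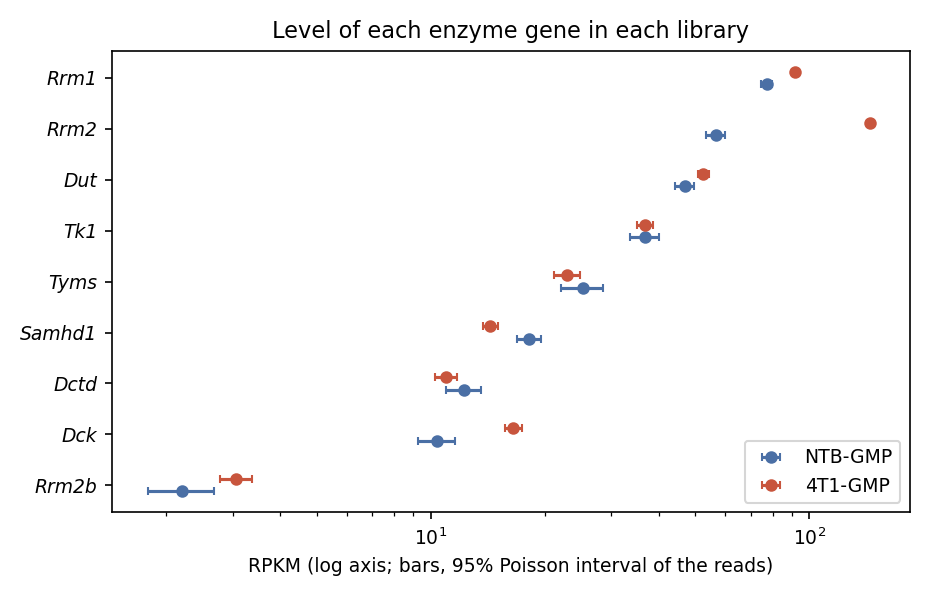
RPKM of the 9 enzyme genes in NTB-GMP (blue) and 4T1-GMP (red) on a log axis, with 1 library per point and bars for the 95% Poisson interval of the reads. Rrm2 passes Rrm1 in 4T1-GMP, at 144.9 against 91.6 RPKM, and Rrm2b is lowest in both libraries.

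The subunits of ribonucleotide reductase differed unequally between the libraries. Rrm2 (chromosome 12, 24708241 to 24714146 on GRCm38, plus strand) rested on 1256 reads in the control library and 9483 in 4T1-GMP. Its log2 ratio was 1.36 (95% interval 1.27 to 1.44, by the Clopper-Pearson method), or 2.56-fold. Its ratio stayed at 2.28-fold with Rn45s taken out of the library sizes, and it was the only 1 of the 9 genes past 2-fold, a size that 3.25% of all tested genes reached in the higher direction. Rrm1, the large subunit (chromosome 7, 102441695 to 102469771, plus strand), had 77.2 RPKM (3141 reads) and 91.6 RPKM (10992 reads), with a log2 ratio of 0.25 (interval 0.19 to 0.31). The small excess of Rrm1 in 4T1-GMP depended on the scaling, at 0.08 without Rn45s and -0.01 after quantile normalization. Rrm2b, the p53-inducible small subunit (chromosome 15, 37923952 to 37961318, minus strand), was the scarcest transcript, at 2.20 RPKM (101 reads) and 3.06 RPKM (414 reads). Its log2 ratio of 0.46 had the widest interval of the 9 genes, 0.16 to 0.80, or 1.12-fold to 1.75-fold, which holds 1.5-fold. Rrm1 and Rrm2b overlap other annotated genes on their own strand (Gm45399 and the pseudogene Gm3362), so some of their reads may have been left uncounted or shared.

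Ratios between genes of the same library do not depend on the library size. Rrm2 was at 0.733 times the RPKM of Rrm1 in NTB-GMP and 1.58 times in 4T1-GMP, a 2.16-fold difference (exact conditional 95% interval 2.01 to 2.32). In the first library the large subunit transcript was thus the more abundant of the pair, and in the second the small subunit was. The ratio of Rrm2 to Rrm2b was 25.7 in NTB-GMP and 47.4 in 4T1-GMP, 1.84-fold apart (interval 1.46 to 2.31). Rrm2b accordingly made up 3.74% of the summed small subunit RPKM in NTB-GMP and 2.07% in 4T1-GMP. The ratio of Rrm2b to Rrm1 was 0.0285 and 0.0334, and the interval of its difference (0.937 to 1.48-fold) holds 1.

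Because Rrm2 and Rrm1 encode subunits of a single enzyme with such unequal ratios, and Dck was the other gene past 1.5-fold, their promoter sequences are shown, from RefSeq on GRCm38.p6, with 250 bases before and 50 after the gene start, 5′ to 3′ on the strand of the gene. The Rrm2 window is chr12:24708004-24708303 (plus strand), the Rrm1 window chr7:102441445-102441744 (plus strand) and the Dck window chr5:88764763-88765062 (plus strand). Capitals mark matches, on either strand, to CCAAT (the CCAAT box), to TTCCCGC or TTGGCGC (forms of the E2F element) and to TTTGAA or TTCGAA (forms of the cell cycle homology region).

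Rrm2: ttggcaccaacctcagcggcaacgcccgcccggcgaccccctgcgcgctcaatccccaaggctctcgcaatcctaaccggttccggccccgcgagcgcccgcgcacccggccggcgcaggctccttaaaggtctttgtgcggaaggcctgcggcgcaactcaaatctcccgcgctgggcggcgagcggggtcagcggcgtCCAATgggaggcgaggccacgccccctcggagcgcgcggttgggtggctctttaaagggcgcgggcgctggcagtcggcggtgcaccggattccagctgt

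Rrm1: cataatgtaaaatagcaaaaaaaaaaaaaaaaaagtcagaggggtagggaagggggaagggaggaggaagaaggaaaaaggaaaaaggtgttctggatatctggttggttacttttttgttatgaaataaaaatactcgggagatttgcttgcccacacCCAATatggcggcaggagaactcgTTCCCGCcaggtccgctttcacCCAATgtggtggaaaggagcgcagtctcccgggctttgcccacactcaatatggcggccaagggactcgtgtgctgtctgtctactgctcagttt

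Dck: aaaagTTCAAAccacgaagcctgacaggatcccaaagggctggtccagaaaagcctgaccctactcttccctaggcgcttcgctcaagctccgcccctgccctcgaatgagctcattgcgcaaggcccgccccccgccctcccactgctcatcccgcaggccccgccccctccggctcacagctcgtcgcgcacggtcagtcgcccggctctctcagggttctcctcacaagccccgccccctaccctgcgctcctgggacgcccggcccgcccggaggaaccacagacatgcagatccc

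Positions are counted from the start used for each window. For Rrm2 and Dck that start lies some bases downstream of the start of the gene coordinates given in the text. The Rrm2 window held 1 CCAAT box, whose first base lies at -50 from the window's start site, and no match to the other words. The Rrm1 window held CCAAT at -91 and -45 and an E2F word at -67, between the CCAAT boxes. The Dck window held only a cell cycle homology word, on the minus strand at -245. Promoters were found for 8 of the 9 genes, all but Rrm2b. CCAAT was present in 3 of these 8 (Rrm1, Rrm2 and Dctd), the E2F words in 1 (Rrm1) and the cell cycle homology words in 1 (Dck), against 37.4%, 6.81% and 19.2% of all 32851 promoters in the table. Windows of the S-phase genes described below held an E2F word in 24 of 46. The matches are letters in these windows, and their use in GMPs was not measured.

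The thymidylate branch showed little difference between the libraries as deposited. Tyms, the enzyme that makes dTMP from dUMP (chromosome 5, 30058202 to 30073617, minus strand), had 25.2 RPKM (244 reads) in NTB-GMP and 22.9 RPKM (655 reads) in 4T1-GMP. Its log2 ratio of -0.13 had an interval of -0.35 to 0.08, and without Rn45s the ratio was -0.298. Tk1, the S-phase kinase that salvages thymidine (chromosome 11, 117815526 to 117826092, minus strand), stood at 36.7 RPKM (512 reads) and 36.8 RPKM (1514 reads), with a log2 ratio of 0.00 (interval -0.14 to 0.15). In folds, the interval of Tk1 ran from 0.907 to 1.11, and its log2 ratio was -0.16 without Rn45s. Afmid and Gm20708 overlap Tk1 on the other strand, and without stated strand use their reads cannot be told apart from those of Tk1.

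Dut, the dUTPase that removes dUTP and yields dUMP (chromosome 2, 125247190 to 125258608, plus strand), was the most abundant enzyme of this branch, at 46.9 RPKM (1199 reads) and 52.6 RPKM (3963 reads). Its log2 ratio of 0.16 (interval 0.07 to 0.26) was 0.00 with Rn45s taken out and -0.02 after quantile normalization. Dctd, the dCMP deaminase that supplies dUMP by the other route (chromosome 8, 48099092 to 48153233, plus strand), had 12.2 RPKM (346 reads) and 10.97 RPKM (917 reads). Its log2 ratio was -0.15 (interval -0.33 to 0.03), and -0.315 without Rn45s. Measured against Dut within each library, both other dUMP enzymes stood lower in 4T1-GMP. The ratio of Tyms to Dut was 0.537 and 0.436, which is 0.812-fold (interval 0.69 to 0.958), and that of Dctd to Dut was 0.26 and 0.209, which is 0.802-fold (interval 0.696 to 0.925). The ratio of Tyms to Tk1, de novo against salvage, was 0.685 and 0.622, with an interval of the difference (0.757 to 1.09-fold) that holds 1.

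Dck, the kinase that starts salvage of deoxycytidine, deoxyadenosine and deoxyguanosine (chromosome 5, 88764996 to 88783281, plus strand), had 10.4 RPKM (323 reads) in NTB-GMP and 16.5 RPKM (1516 reads) in 4T1-GMP. Its log2 ratio was 0.67 (interval 0.50 to 0.85), or 1.59-fold with an interval that starts at 1.41-fold and so holds 1.5-fold, above that of 92.6% of tested genes. With Rn45s taken out of the library sizes it was 1.42-fold and no longer past 1.5-fold. After quantile normalization (log2 ratio 0.634) and after centring on the median (0.615), Dck was past that limit. Beside Tk1, the other cytosolic kinase, Dck stood at 0.283 times the RPKM in NTB-GMP and 0.448 times in 4T1-GMP, 1.59-fold apart (interval 1.35 to 1.86). The salvage kinases thus differed from each other between the libraries beyond counting error.

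Samhd1, the dNTP triphosphohydrolase that lowers dNTP pools in nondividing myeloid cells (chromosome 2, 157097533 to 157135265, minus strand), had the lowest ratio of the 9 genes. It stood at 18.2 RPKM (742 reads) in NTB-GMP and 14.4 RPKM (1729 reads) in 4T1-GMP, with a log2 ratio of -0.34 (interval -0.46 to -0.21), or 0.79-fold. Without Rn45s it was at -0.50, still short of 1.5-fold lower. Relative to Rrm1, the breakdown enzyme was at 0.235 times the RPKM of the synthesis enzyme in NTB-GMP and 0.157 times in 4T1-GMP, which is 0.666-fold (interval 0.605 to 0.733). The monocyte and dendritic markers given above were lower in the same library, and their part in the value of Samhd1 was not tested.

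**Figure D2:**
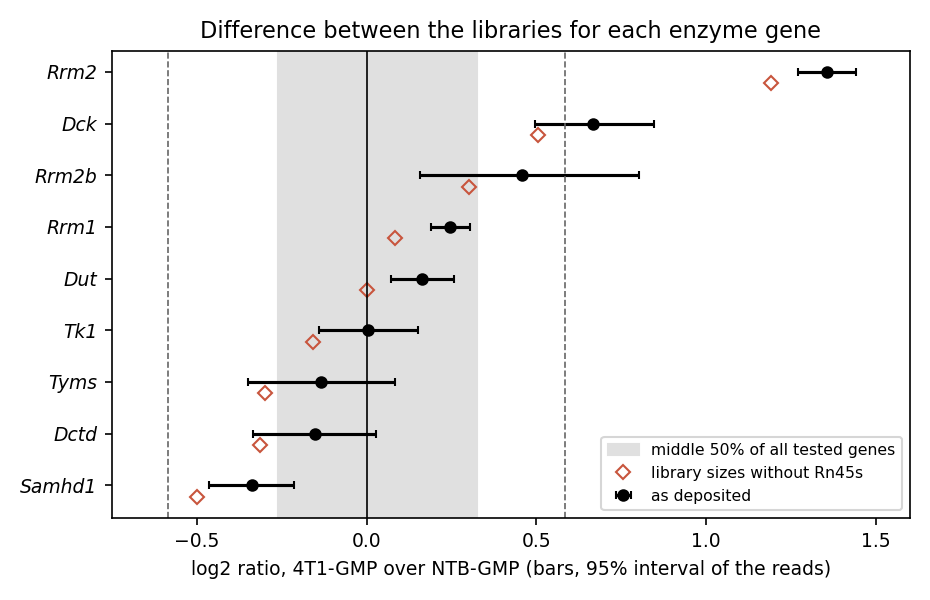
Log2 ratio of each enzyme gene (black points; bars, 95% interval of the reads; 1 library per group), with the same ratio after Rn45s is taken out of the library sizes (open red diamonds). The grey band is the middle 50% of all tested genes and the dashed lines mark 1.5-fold; Rrm2 at 1.36 and Dck at 0.67 lie beyond the line, and Dck at 0.50 falls inside it without Rn45s.

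**Figure D3:**
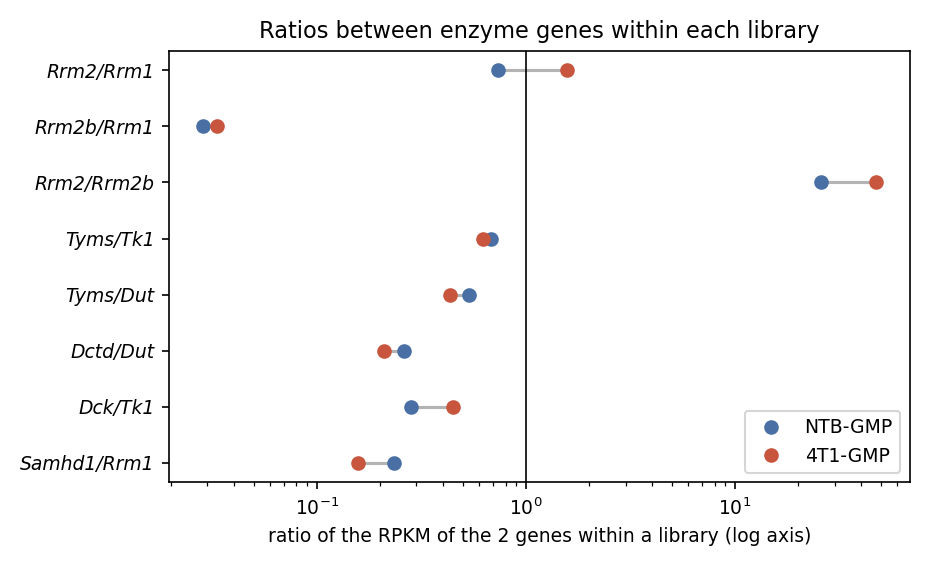
RPKM ratio of 8 pairs of enzyme genes within NTB-GMP (blue) and within 4T1-GMP (red), on a log axis with a line at equal RPKM and 1 library per point. Rrm2 crosses from 0.733 to 1.58 times Rrm1, the only pair that crosses the line.

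Summed over the 9 genes, RPKM was 285.5 in the control library against 393.8 in 4T1-GMP. Rrm2 made up 81.6% of that difference, and without it the sums were 229.0 and 248.9 RPKM, a ratio of 1.09. The 3 reductase subunits accounted for 47.6% of the summed RPKM in NTB-GMP and 60.9% in 4T1-GMP. As deposited, 6 of the 9 genes (66.7%) were higher in 4T1-GMP, near the 54.7% of all tested genes. This direction count depended on the scaling. Without Rn45s, 5 (55.6%) were higher, beside 39.1% of all tested genes. After quantile normalization, 3 (33.3%) were higher (Rrm2, Rrm2b and Dck), beside 50.5% of all tested genes.

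Of the other genes of the pathway, 28 of 36 tested (77.8%, beside 54.7% of all tested genes) were higher in 4T1-GMP, and 24 (66.7%, beside 39.1%) without Rn45s. Of 39 partner genes that carry electrons to the reductase, phosphorylate deoxynucleotides, degrade them or transport them, all but 3 were tested, and 7 (19.4%, beside 9.8% of all tested genes) were past 1.5-fold higher and 2 (5.56%, beside 11.6%) past 1.5-fold lower. Their median log2 ratio was 0.27, beside 0.05 over all tested genes and 0.16 for the 9 enzymes. Without Rn45s, 4 partners were past 1.5-fold higher and 3 lower, beside 616 and 1839 of 10533 tested genes. Their median was then 0.11, beside -0.115 over all tested genes. The electron donors covered a wide range of levels, down to 4.06 and 4.78 RPKM for Glrx2, a mitochondrial glutaredoxin. Txn1, thioredoxin, stood at 124.7 and 186.3 RPKM (log2 ratio 0.58, interval 0.49 to 0.67), and Glrx, glutaredoxin, at 37.7 and 73.7 RPKM (0.97, interval 0.83 to 1.11). Gsr, glutathione reductase, which regenerates glutathione for glutaredoxin, was at 116.0 and 134.4 RPKM (0.21, interval 0.16 to 0.27).

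Enzymes of purine deoxynucleoside breakdown were among the genes past 1.5-fold. Ada, adenosine deaminase, which also deaminates deoxyadenosine, had 8.53 RPKM (148 reads) in NTB-GMP and was 1.75-fold higher in 4T1-GMP (767 reads, log2 ratio 0.81, interval 0.56 to 1.08). Pnp, purine nucleoside phosphorylase, had 50.3 and 88.8 RPKM (0.82, interval 0.74 to 0.90), and its neighbouring paralog Pnp2 had 15.9 and 25.7 RPKM (0.69, interval 0.47 to 0.92). These closely similar paralogs can share reads, so the split between them is uncertain. Itpa, which removes deaminated purine triphosphates from the pool, stood at 20.9 and 33.8 RPKM (0.69, interval 0.49 to 0.90). Nt5c3, a pyrimidine nucleotidase, stood at 23.4 and 36.5 RPKM (0.64, interval 0.49 to 0.80). Without Rn45s, Pnp2 (0.53), Itpa (0.53) and Nt5c3 (0.48) were no longer past 1.5-fold, while Ada (0.65 on that scale) and Pnp (0.66) were. Slc25a33, a mitochondrial pyrimidine nucleotide carrier, was low, at 2.04 RPKM (39 reads) and 4.21 RPKM (237 reads), with a log2 ratio of 1.01 (interval 0.55 to 1.57). Nme2, a nucleoside diphosphate kinase that makes the triphosphates, was the most abundant partner, at 128.8 and 186.7 RPKM (0.54, interval 0.46 to 0.62).

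Lower in 4T1-GMP were Cmpk2, a mitochondrial nucleotide kinase induced by interferon, at 3.20 RPKM (104 reads) and 0.627 RPKM (60 reads), and Trex1, an exonuclease that degrades cytosolic DNA, at 10.6 RPKM (123 reads) and 5.33 RPKM (182 reads). Their log2 ratios were -2.18 (interval -2.84 to -1.88) and -0.98 (interval -1.33 to -0.65). Upp1, Tymp and Cda fell below the expression minimum, and Cda, the cytidine deaminase, was listed at 0 in both libraries.

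**Figure D4:**
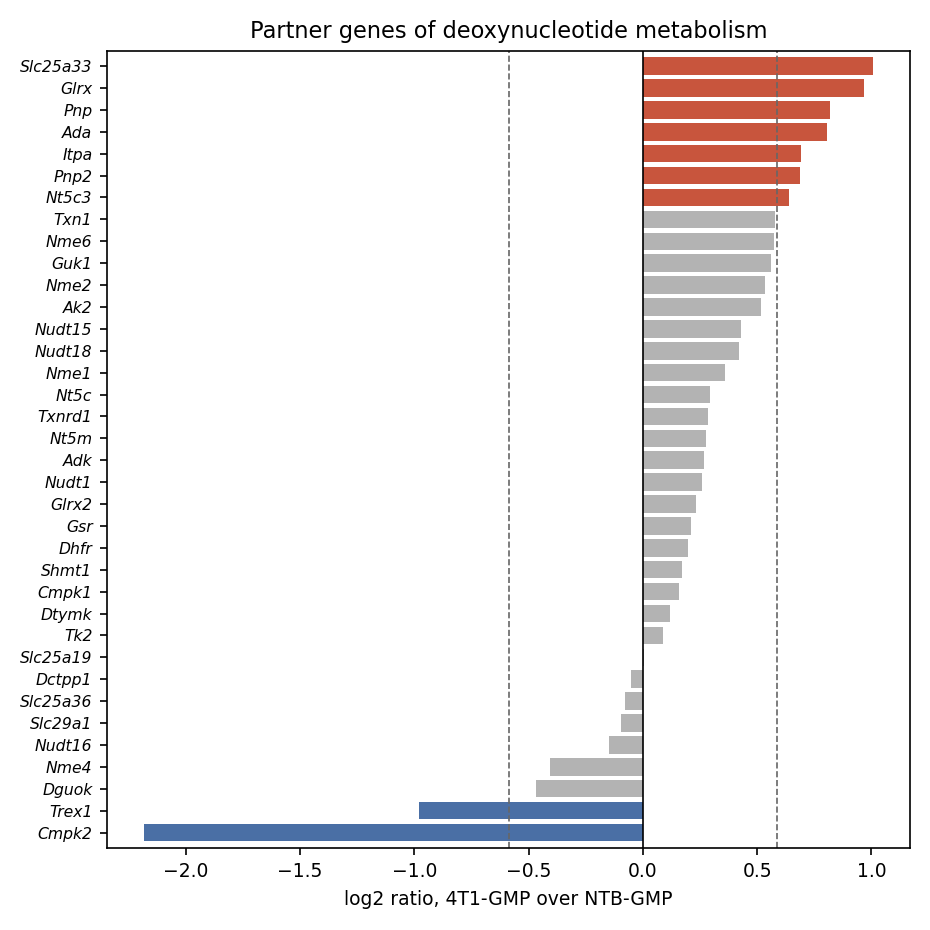
Log2 ratio of the 36 tested partner genes of deoxynucleotide metabolism (1 library per group), with dashed lines at 1.5-fold, red bars for the 7 genes past it in the higher direction and blue bars for the 2 past it in the lower direction. Slc25a33 (1.01) and Cmpk2 (-2.18) stand at the ends.

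Genes of DNA replication, which act in the same phase of the cell cycle as Rrm2, Tk1 and Tyms, mostly stayed within 1.5-fold. As deposited, 36 of 53 (67.9%, beside 54.7% of all tested genes) were higher in 4T1-GMP. Without Rn45s, 28 were higher (beside 39.1% of all tested genes). Of 53 S-phase genes, all tested, 3 (5.66%, beside 9.8% of all tested genes) were past 1.5-fold higher and 0 past 1.5-fold lower, with a median log2 ratio of 0.19 that became 0.03 without Rn45s and 0.00 after quantile normalization. Without Rn45s, 2 were past 1.5-fold higher and 1 lower, beside 616 and 1839 of 10533 tested genes. The highest ratios were those of Ccne1, cyclin E1 (5.32 and 10.5 RPKM, log2 ratio 0.96), Pole2, a subunit of DNA polymerase epsilon (0.87), and Fen1, the flap endonuclease (0.66). Low ratios were those of Pola1, the catalytic subunit of DNA polymerase alpha (-0.35), and Wdr76 (-0.33). The ratio of Rrm2 was above that of all 53 S-phase genes, by 1.17 over their median on the log2 scale. Rrm2 was above all 53 as deposited, without Rn45s, after quantile normalization and after centring on the median. The interval of Ccne1 (0.55 to 1.42, with 53 reads in NTB-GMP) overlaps that of Rrm2 (1.27 to 1.44). Dck was above 51 of the 53, Rrm1 above 32, Dut above 25, Tk1 above 17 and Tyms above 10. Samhd1 was above 2.

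Transcripts of regulators of these genes were also examined, and the part of the regulators in the Rrm2 value was not tested. Only their RNA was measured, not their protein or activity. E2f1, an activator of S-phase genes, was at 10.8 and 7.13 RPKM (log2 ratio -0.60, interval -0.94 to -0.27). Its ratio was just past 1.5-fold lower, with an interval that holds 1.5-fold. The repressors E2f7 and E2f8 were at -0.30 (interval -0.53 to -0.07) and -0.46 (interval -0.56 to -0.36). Ccnf, cyclin F, which targets the RRM2 protein for degradation, was at 18.7 and 21.8 RPKM (0.22, interval 0.09 to 0.36). Ccna2, cyclin A2, of S and G2 phase, was at 59.3 and 78.3 RPKM (0.40, interval 0.33 to 0.48).

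Beside Rrm2b, 30 p53 target genes were examined, of which 23 were tested. Of these, 4 (17.4%, beside 9.8%) were past 1.5-fold higher and 0 past 1.5-fold lower, with a median log2 ratio of 0.08. These counts were 2 and 1 without Rn45s (beside 616 and 1839 of 10533 tested genes). They were 2 and 0 after quantile normalization (988 and 1066 of 10378). With an expression minimum of 5 RPKM they were 2 and 0 (682 and 556 of 7982). Pmaip1, the proapoptotic NOXA, was at 1.07 RPKM (29 reads) and 3.11 RPKM (248 reads), a log2 ratio of 1.45 (interval 0.98 to 2.15). Sesn2 (0.96) and Rps27l (0.70) followed, and the lowest were Ercc5 (-0.46), Sesn1 (-0.42) and Psrc1 (-0.36). Trp53, which encodes p53, was at 59.6 and 59.3 RPKM (-0.01, interval -0.10 to 0.09). Its classical targets Mdm2 (0.08, interval -0.18 to 0.34) and Cdkn1a (0.10, interval -0.59 to 0.85) had intervals that hold 0, and Cdkn1a rested on 23 reads in NTB-GMP.

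Samhd1 and Cmpk2 are known interferon-inducible genes, so 30 other interferon-stimulated genes were set beside them. Only 18 passed the expression minimum, of which 0 were past 1.5-fold higher and 6 (33.3%, beside 11.6% of all tested genes) past 1.5-fold lower, with a median log2 ratio of -0.20. Past 1.5-fold lower were 8 without Rn45s (beside 1839 of 10533 tested genes) and 3 after quantile normalization (1066 of 10378). The number was 2 with a pseudocount of 1 (913 of 10378) and 2 with an expression minimum of 5 RPKM (556 of 7982). With all genes above 0 it was 14 of the 30 listed (2518 of 14833 genes). At 2-fold it was 0 (511 of 10378). How many listed genes are compared changes with the expression minimum. Irf7 (1.64 and 0.824 RPKM, log2 ratio -0.91), Isg20 (-0.76) and Parp14 (-0.76) had the lowest ratios, and Oas1a (0.42), Ifit2 (0.41) and Oasl1 (0.30) the highest. Oasl1 rested on a recovered minimum of 3 reads in the control library. The ratio of Samhd1, -0.34, lay between the median of this list and its quartile of -0.62.

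**Figure D5:**
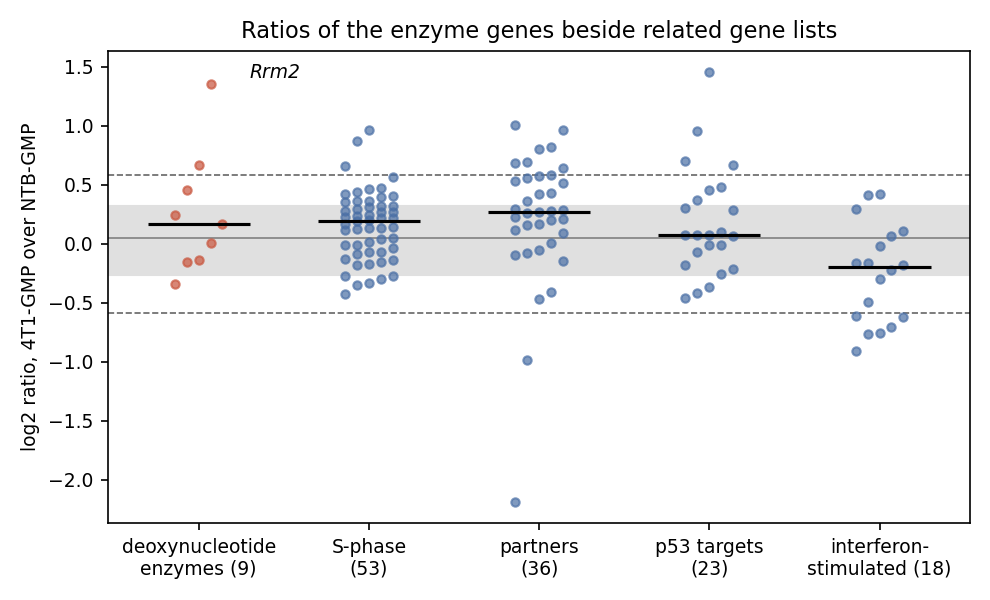
Log2 ratios (1 library per group) of the 9 enzyme genes (red) and of the tested genes of 4 related lists (blue), with a bar at each median, dashed lines at 1.5-fold and the middle 50% of all tested genes in grey. Rrm2 at 1.36 lies above all 53 S-phase genes, the highest of which is Ccne1 at 0.96. The counting intervals of Rrm2 and Ccne1, not drawn here, overlap. Below the lower line lie 6 interferon-stimulated genes.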

How the data were processed

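The authors deposited RPKM for both libraries, 1 value per gene symbol, without coordinates. Per the labels, the submitters' processing notes name TopHat2 2.0.13, HTSeq 0.6.1 and edgeR 3.12.1 and the build mm10; gene lengths, strand use and pooling of mice are not given in the sources used here. Whole reads and library sizes were recovered from the digits of the RPKM for 14833 of 14833 genes above 0, and the procedure was tested on simulated data. The sizes came out as 10180365.24 and 30016262.80, which are not whole numbers, so they are not plain read totals. They are known only up to whole factors: of the pairs tried, the chosen one put most genes at a GENCODE transcript length (90 of 800), and the pairs next to it (86 and 81) are whole multiples of it in 1 library, which would give more reads and narrower intervals. Recovered reads can be too low by a common factor, which widens intervals. PCR reads are not independent molecules, so intervals cover counting error only. Genes averaging 1 RPKM or more over both libraries were compared by size of ratio, with a pseudocount of 0.1 and a 1.5-fold limit, without any significance test. Intervals were 95% Clopper-Pearson (ratios), Poisson (levels) and conditional odds ratio (pairs). The ratio intervals do not include the pseudocount, so the ratio of a low gene can lie off the centre of its interval or outside it. Rn45s-free sizes subtract its recovered reads. Named genes were the 9 enzymes, partners past 1.5-fold or with the 3 highest mean RPKM, the 3 highest and 3 lowest ratios of each other list, 8 regulators and, per marker list, the 2 highest genes and those at 0; Kit, Cd34, Prtn3, Fcgr3 and Glrx2 were added after their values were seen, and some genes that the rule names are not reported here. The genes, lists and alternatives were chosen with earlier results of these data known. Gene positions came from GENCODE M21 (GRCm38, the same assembly as mm10). Computations used Python 3.11.15, numpy 2.4.6, pandas 2.3.3 and scipy 1.17.1.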

Additional observations from a re-analysis of the deposited data

How the results depend on the processing

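Among 62 log2 ratios recomputed for the 9 enzymes, 53 fell inside the counting interval and 9 outside. Rrm1, Dut and Tk1 changed sign under at least 1 alternative, and the other 6 enzymes did not. Without Rn45s in the library sizes, Rrm2 was at 1.19, Rrm1 at 0.083, Dut at 0.001, Tk1 at -0.16 and Samhd1 at -0.50, by the common shift of -0.16; quantile normalization gave 1.14 for Rrm2, -0.014 for Rrm1, -0.02 for Dut and -0.14 for Tk1, and the cause was not tested. The number of enzymes past the limit in the higher direction was 1 without Rn45s and 1 at 2-fold (Rrm2 in both), and 3 after quantile normalization, which put Rrm2b at 0.67. At a lower limit, 0.322 on the log2 scale in place of 0.585, 3 enzymes were past it in the higher direction and 1 (Samhd1) in the lower. Of all genes, 1017 were past 1.5-fold higher and 1209 lower as reported. These counts were 616 and 1839 without Rn45s, 988 and 1066 after quantile normalization, and 337 and 511 at 2-fold. They were 2611 and 2254 at that lower limit and 1759 and 2518 with all genes above 0. With an expression minimum of 5 RPKM they were 682 and 556, where higher calls were the majority (55.1%). Of 32 recomputed differences between pairs, 29 stayed inside their interval; the 3 that moved were all under quantile normalization, which is not a common scaling, with Rrm2 against Rrm2b at 0.46 in place of 0.88. Of 100 values for the related lists, 30 moved. Depth limits Rrm2b most, with 101 reads in NTB-GMP. No paired analysis was possible because neither group held more than 1 library, which also leaves no replicate to drop.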
